A study of Homo sapiens with 3 samples.

Results

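Collagen genes were described in 3 cultures of human lung fibroblasts. They were taken as every gene whose symbol reads COL, a number, A and a number and which a probe set of the array names alone. This gave 43 genes of 19775 in all, on 112 of 54613 probe sets. By the form their proteins take they fell into 11 fibrillar, 6 basement membrane, 10 FACIT and 16 other collagens. FACIT stands for fibril-associated collagens with interrupted triple helices. COL17A1, a further collagen gene in the RefSeq gene table, was not analysed here.

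The cells were IMR-90 ER:Ras, a derivative of an established line of normal human fetal lung fibroblasts that carries an inducible form of the Ras oncoprotein. All 3 cultures were of this derivative and grew in medium with fetal bovine serum. Growing cells received nothing further. Cells in oncogene-induced senescence (OIS), a lasting arrest of division brought on by an active oncogene, were kept for 6 days with 100 nM of 4-OHT, the ligand of the ER part of the fusion. Cells in replicative senescence (RS), the arrest that follows exhaustion of division, had been passaged for 10 weeks. No culture given 4-OHT without inducible Ras was among the samples, so the ligand and Ras cannot be told apart, and RS differs from growing cells in culture time as well as in arrest.

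Each culture had 1 array and no replicate, so no comparison below has a test, and values describe these 3 arrays only. With so few arrays the precision of all values is limited. The proliferation gene MKI67 was 5.69-fold lower in OIS and 4.21-fold lower in RS than in growing cells, and LMNB1, which encodes lamin B1, was 9.25-fold and 10.1-fold lower. All 11 fibroblast markers examined were above the floor on the 3 arrays. HRAS was 1.53-fold higher in OIS and 3.01-fold lower in RS. The secreted cytokine gene IL6 was 19.8-fold and 1.59-fold higher, and the arrest gene CDKN1A 2.60-fold and 1.36-fold higher. A signal here is the linear intensity of a probe set, and values under the floor of 45.5, the median of all signals, were set to 45.5 before ratios were formed. A gene is read from its brightest probe set and counts as measured when it exceeds the floor on at least 1 array. Folds marked "at least" have the dimmer array at or under the floor. The spread between the best 2 probe sets of 6759 genes gave an SD of 0.36 log2 units per probe set for OIS over growing, 0.33 for RS over growing and 0.37 for OIS over RS. This compares probe sets on the same arrays and leaves out differences between cultures. It may also hold differences between the transcripts that the probe sets read. In bulk RNA, fewer cells of a type and less RNA per cell cannot be told apart.

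Collagens are extracellular matrix proteins built of chains that wind around one another in a triple helix, which requires glycine at regularly repeated places. Fibrillar collagens assemble into the banded fibers that give tissue its tensile strength, and in lung the fibroblast is their main source. Basement membrane collagen forms a sheet-like network under epithelia and around vessels. FACIT collagens sit on the surface of fibrils, and the remaining collagens form beaded filaments, hexagonal networks, anchoring fibrils or membrane-bound proteins.

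Of the 43 collagen genes 31 were measured (72.1%), against 68.1% of all genes. In OIS 8 of the 31 were at least 2-fold higher than in growing cells, which is 25.8%, beside 4.92% of all 13466 measured genes. At least 2-fold lower were 2 of 31 (6.45%), beside 6.63% of all measured genes. In RS 2 lay 2-fold or more above growing cells and 2 lay 2-fold or more below, 6.45% in each direction, beside 3.72% and 5.58% of all measured genes. Passing the floor on 1 array alone was enough to be measured, for collagens and for all genes alike. The median log2 ratio of the measured collagens was 0.45 for OIS over growing and 0.09 for RS over growing, and that of all measured genes was 0.00 in both. Over all 43 collagens the medians were 0.24 and 0.00. Both ratios use the same growing array, so they are not independent of each other. In OIS 28 of the 31 measured collagens had a ratio above 0, compared with 18 in RS, beside 47.1% of all measured genes in each comparison. On their brightest probe sets COL8A2, COL21A1, COL22A1 and COL25A1 were under the floor in growing cells, so these ratios could not be below 0. COL21A1, among the 8, and COL25A1 were measured through OIS alone. After quantile normalization the OIS ratio was 0.00 for COL1A1, -0.07 for COL1A2, -0.02 for COL3A1 and -0.05 for COL5A2.

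**Figure D1:**
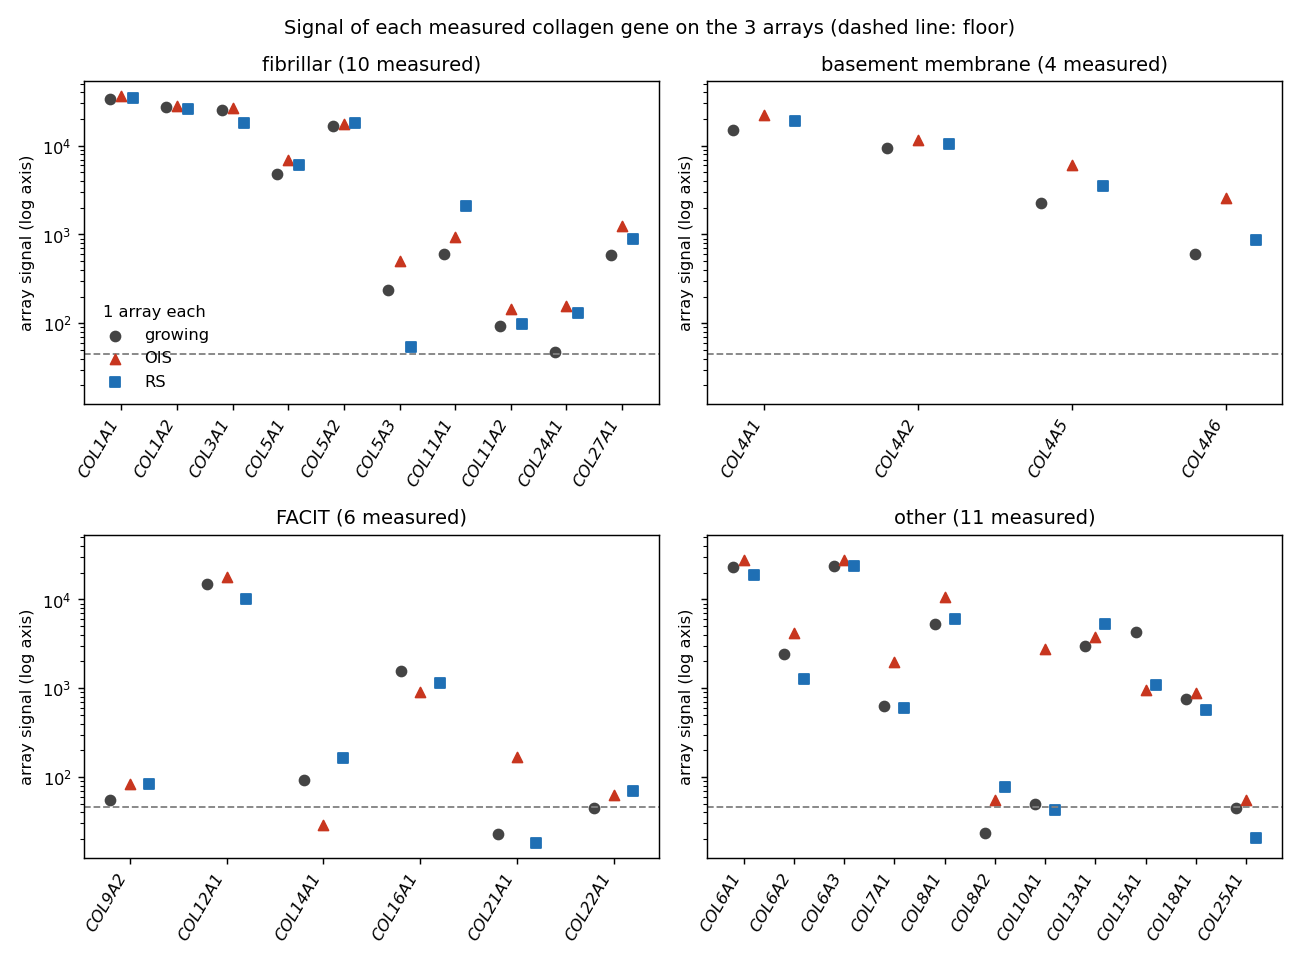
Signal of each of the 31 measured collagen genes on the growing (circles), OIS (triangles) and RS (squares) arrays, 1 array each, in 4 panels by class. The vertical axis is the array signal on a log scale and the dashed line is the floor of 45.5; COL10A1 stands at 2751 on the OIS array and near the floor on the others.

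**Figure D2:**
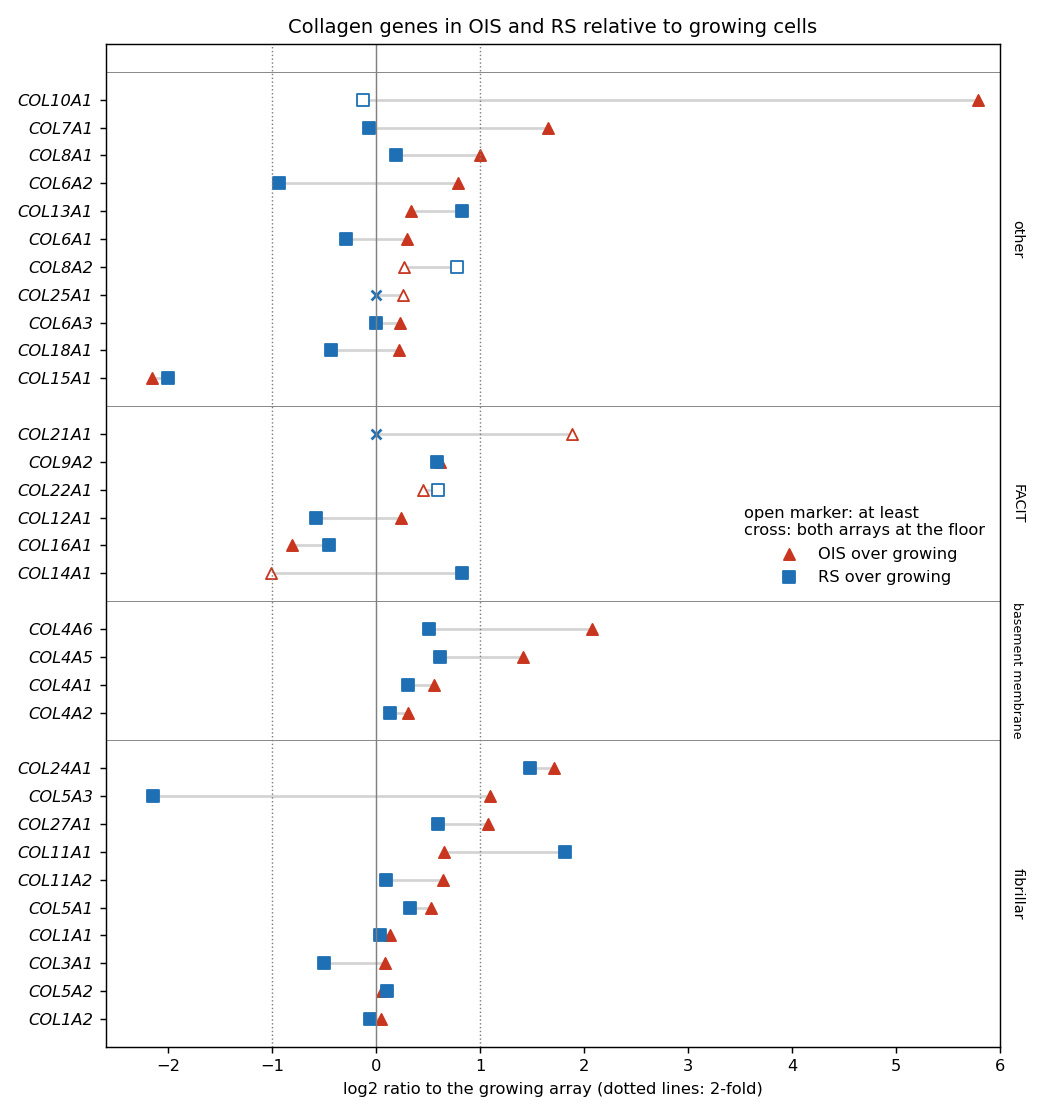
Log2 ratio of each measured collagen gene to the growing array, for OIS (triangles) and RS (squares), grouped by class. Dotted lines mark 2-fold, open markers have the dimmer array at or under the floor, and crosses have both there; 8 genes lie at or past 2-fold to the right in OIS and 2 in RS.

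The fibrillar class had 10 measured members of 11, and all 10 were above the floor on every array. In OIS 3 of the 10, COL5A3, COL24A1 and COL27A1, were at least 2-fold higher than in growing cells and none was as much lower. The 3 are 30% of the measured class, beside 4.92% of all measured genes. In RS COL11A1 and COL24A1 were past 2-fold higher and COL5A3 past 2-fold lower. These are 20% and 10%, beside 3.72% and 5.58% of all measured genes. COL1A1, a chain of type I collagen, had a signal of 33451 in growing cells, 36639 in OIS cells and 34357 in RS cells. That probe set was the brightest of all on the growing and OIS arrays and the ninth in RS. A signal at the top of an array's range may be compressed, which was not tested. Its less bright probe sets with signals of 12326 and 4628 in growing cells had OIS ratios of 0.17 and -0.03 and RS ratios of -0.21 and -0.27 in log2. A dim one, at 149 in growing cells, gave 0.94 in OIS and 0.53 in RS. COL1A2, the partner chain, read 27180, 27990 and 26109 in growing, OIS and RS cells. On their brightest probe sets both type I chains were within 1.10-fold of growing cells on each senescent array. A dimmer COL1A2 probe set, the only one without a cross-hybridizing name (_s_at or _x_at, which may read several transcripts), gave -0.84 in OIS and 0.33 in RS.

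COL3A1, the type III chain that fibroblasts deposit with type I, read 25414 in growing cells, 26989 in OIS cells and 17971 in RS cells. It was 1.06-fold higher in OIS and 1.41-fold lower in RS. Its other bright probe sets, at 13371 and 11286 in growing cells, gave RS ratios of -0.73 and -0.89 in log2, larger than the -0.50 of the brightest one. COL5A1 and COL5A2 encode chains of type V collagen, which starts and limits fibril growth. COL5A1 read 4836, 6984 and 6055, and was 1.44-fold higher in OIS and 1.25-fold higher in RS. COL5A2 read 16857, 17570 and 18167, within 1.08-fold of growing cells on both senescent arrays, and its second probe set gave -0.22 and -0.02 in log2.

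COL5A3, another and rarer type V chain, moved apart from these and in opposite directions on the senescent arrays. Its signal was 237 in growing cells, 507 in OIS cells and 53.6 in RS cells. It was thus 2.14-fold higher in OIS, 4.42-fold lower in RS and 9.46-fold higher in OIS than in RS. A second probe set read 108, 183 and 27.1 in the same order, again highest in OIS and lowest in RS. The RS signal of the brightest probe set lay close to the floor.

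COL11A1, a chain of type XI collagen, which nucleates fibrils in cartilage, was the fibrillar gene with the highest RS ratio. It read 597 in growing cells, 936 in OIS cells and 2110 in RS cells, 1.57-fold higher in OIS and 3.53-fold higher in RS. Its other probe sets gave RS ratios of 1.88 and 1.98 in log2, beside 1.82 for the brightest. COL11A2, another type XI chain, read 92.9, 145 and 99.1, at 1.57-fold and 1.07-fold higher. COL24A1 and COL27A1 encode fibrillar collagens of types XXIV and XXVII, described in bone and cartilage. COL24A1 read 47.3, 154 and 132, which is 3.26-fold higher in OIS and 2.79-fold higher in RS, from a growing signal just above the floor and with a single probe set. With the floor at 88.8 neither of its ratios reached 2-fold. COL27A1 read 585, 1231 and 884, 2.10-fold higher in OIS and 1.51-fold higher in RS, and its other 2 measured probe sets had OIS ratios of 0.93 and 0.81 in log2. COL24A1 and COL15A1 were the only measured collagens at least 2-fold from growing cells in the same direction in both senescent cultures. The median log2 ratio of the fibrillar class was 0.59 in OIS and 0.10 in RS.

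Of the 4 measured basement membrane collagens COL4A5 and COL4A6 exceeded growing cells by over 2-fold in OIS, and none was past 2-fold in RS. The 2 are 50% of the 4, beside 4.92% of all measured genes. The brightest probe set of each had a ratio above 0 in both. Type IV collagen is made of 6 genetically distinct chains, and each gene lies head to head with another. COL4A1 and COL4A2, the chains found in nearly all basement membranes, were the least shifted. COL4A1 read 15205 in growing cells, 22382 in OIS cells and 18814 in RS cells, 1.47-fold and 1.24-fold higher. COL4A2 read 9459, 11698 and 10386, 1.24-fold and 1.10-fold higher. The second probe set of COL4A1 gave 0.86 in log2 for OIS and that of COL4A2 gave 0.67, above the 0.56 and 0.31 of the brighter ones. For RS these second probe sets gave 0.38 and -0.06 beside 0.31 and 0.13, so the sign for COL4A2 differed between its probe sets.

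COL4A5 and COL4A6, the X-linked pair found in specialized basement membranes such as that of smooth muscle, had the larger ratios. COL4A5 read 2287 in growing cells, 6088 in OIS cells and 3496 in RS cells, 2.66-fold and 1.53-fold higher. COL4A6 read 608, 2570 and 862, 4.23-fold and 1.42-fold higher, and 2.98-fold higher in OIS than in RS. Each of its other 2 probe sets was also highest in OIS, at 208 and 148, and under the floor in growing cells. COL4A5 had no second probe set above the floor. COL4A3 and COL4A4, the pair known from kidney glomerulus and lung alveolus, had 7 and 3 probe sets, none above 35.3 on any array. The median log2 ratio of the 4 measured chains was 0.99 in OIS and 0.41 in RS.

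The stretch between the facing starts is shown for each type IV pair, since the members of a pair were alike in being measured or not. Sequences come from the RefSeq promoter table (build GRCh38.p14), which held 31 of the 43 collagen genes. The starts of COL4A2, COL4A5 and COL4A3 were taken from it, and those of the facing genes from the RefSeq gene table. None of the stretches runs past the starts so taken. They are given 5′ to 3′ on the plus strand, with matches to CCAAT or GGGCGG on either strand in capitals. The COL4A1-COL4A2 stretch is all 126 bases between the starts (chr13:110307158-110307283). The COL4A4-COL4A3 stretch is all 135 bases between the starts so taken (chr2:227164489-227164623). The promoter table's own window for COL4A4 held 0 matches to GGGCGG, so that table places the COL4A4 start elsewhere. The COL4A6-COL4A5 stretch is the 250 bases next to COL4A5 (chrX:108439588-108439837) of 379 between the starts.
COL4A1-COL4A2: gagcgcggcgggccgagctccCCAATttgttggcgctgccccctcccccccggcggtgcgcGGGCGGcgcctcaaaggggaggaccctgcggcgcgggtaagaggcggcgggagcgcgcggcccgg
COL4A6-COL4A5: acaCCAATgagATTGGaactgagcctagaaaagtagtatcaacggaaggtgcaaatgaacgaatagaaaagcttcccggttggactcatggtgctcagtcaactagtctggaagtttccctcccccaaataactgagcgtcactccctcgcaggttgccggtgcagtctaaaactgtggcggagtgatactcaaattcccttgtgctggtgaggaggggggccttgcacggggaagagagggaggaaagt
COL4A4-COL4A3: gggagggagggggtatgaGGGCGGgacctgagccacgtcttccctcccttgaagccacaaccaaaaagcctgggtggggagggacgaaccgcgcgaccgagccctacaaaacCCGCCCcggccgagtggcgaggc
The G and C content was 80.2% in the COL4A1-COL4A2 stretch, 68.1% in the COL4A4-COL4A3 stretch and 51.2% in the COL4A6-COL4A5 stretch. The first held 1 match to CCAAT and 1 to GGGCGG, the X-linked stretch 2 to CCAAT on opposite strands, and the stretch of the pair under the floor 2 to GGGCGG. A match is a description of the letters and not a binding site.

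The FACIT class had 6 measured members of 10 and no common direction. COL12A1, which coats type I fibrils under tension, read 15101 in growing cells, 17818 in OIS cells and 10113 in RS cells, 1.18-fold higher and 1.49-fold lower. All of its other 4 measured probe sets were likewise higher in OIS and lower in RS. COL14A1, a fibril-coating collagen of skin and tendon, did the reverse, at 91.4 in growing cells, 29.1 in OIS cells and 162 in RS cells. It was at least 2.01-fold lower in OIS, where it lay under the floor, and 1.77-fold higher in RS. Its second probe set exceeded the floor in RS alone, at 59.1.

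COL16A1, a minor collagen of skin and vessel wall, was highest in growing cells, at 1571 against 898 in OIS and 1145 in RS, or 1.75-fold and 1.37-fold lower. COL21A1, a FACIT collagen of vessel walls, was above the floor in OIS alone, at 168 beside 22.7 in growing cells and 17.9 in RS, which is at least 3.69-fold higher, on 1 probe set. With the floor at 88.8 it did not reach 2-fold. COL9A2, a cartilage collagen chain, read 55.1, 84.1 and 82.5. COL22A1, found at tissue junctions, read 44.5, 62.0 and 68.9. Both lay near the floor throughout and neither was 2-fold from growing cells. The class median was 0.34 in OIS and 0.29 in RS, and both signs turned with a floor of 11.7, where the medians were -0.035 and -0.33.

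Among the other collagens COL10A1 had by far the widest range. It encodes type X collagen, a short-chain network collagen known as a marker of hypertrophic cartilage. Its signal was 49.8 in growing cells, 2751 in OIS cells and 42.0 in RS cells, 55.2-fold higher in OIS than in growing cells. Over RS it was at least 60.5-fold higher. A second probe set read 40.3, 1609 and 50.6 in the same order. With the floor at 88.8 in place of 45.5 the log2 ratio of OIS over growing was 4.95 instead of 5.79. Both probe sets have names ending in _s_at, which can detect several transcripts, and no other probe set of the gene was there to check them.

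The stretches before the starts of COL10A1 and of COL15A1 are shown because these genes had the highest and the lowest OIS ratio of the class. Each is the 250 bases before a start in the RefSeq table, on the strand of the gene, with matches in capitals to the TATA box (TATAAA), the CCAAT box and the GC box (GGGCGG). That of COL10A1 lies at chr6:116126133-116126382 on the minus strand and belongs to 1 of 3 starts listed for the gene. The array does not tell which start is in use. That of COL15A1 lies at chr9:98943657-98943906 on the plus strand.
COL10A1: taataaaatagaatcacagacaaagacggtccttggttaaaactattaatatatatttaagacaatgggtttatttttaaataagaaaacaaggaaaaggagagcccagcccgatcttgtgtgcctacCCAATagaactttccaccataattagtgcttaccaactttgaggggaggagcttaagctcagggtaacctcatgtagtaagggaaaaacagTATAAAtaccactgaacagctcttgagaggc
COL15A1: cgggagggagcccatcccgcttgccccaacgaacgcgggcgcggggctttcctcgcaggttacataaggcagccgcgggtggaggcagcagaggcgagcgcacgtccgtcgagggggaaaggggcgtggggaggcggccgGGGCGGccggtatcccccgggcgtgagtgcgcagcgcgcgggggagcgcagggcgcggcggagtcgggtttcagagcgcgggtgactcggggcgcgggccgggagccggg
The COL10A1 stretch had a TATAAA match that begins 31 bases before the start and a CCAAT match at 122 bases, with 37.6% G and C. The COL15A1 stretch had 76.8% G and C, no TATAAA match and 1 GGGCGG match. Over all 35116 windows of 300 bases in the table, TATAAA was found on either strand in 11.5%, CCAAT in 34.6% and GGGCGG in 15786 windows. Over the 43 windows of 31 collagen genes TATAAA was in 7 (16.3%), CCAAT in 13 (30.2%) and GGGCGG in 24 (55.8%). The letters TGACTCA, the textbook AP-1 site, were in 4.95% of all windows and in 0 of the 43 collagen windows. TGTGGT, the core of the RUNX site, was in 13.1% of all and in 1 of the 43. None of these 5 motifs is contained in another, and some windows of a gene or of facing genes overlap.

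Of the other short-chain network collagens, COL8A1, a collagen of vessel wall and Descemet's membrane, read 5279 in growing cells, 10537 in OIS cells and 6041 in RS cells. At 1.996-fold it fell just short of 2-fold in OIS, next to COL14A1 and COL27A1 just past it. It was 1.14-fold higher in RS. Its less bright probe set had an OIS ratio of 0.38 in log2. COL8A2, the partner chain, read 23.6, 54.7 and 78.0, at least 1.71-fold higher in RS.

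COL7A1 encodes the anchoring fibril collagen that ties epidermis to dermis. It read 626 in growing cells, 1973 in OIS cells and 597 in RS cells, 3.15-fold higher in OIS and 1.05-fold lower in RS. Its second probe set read 387, 900 and 370. OIS was high and the other arrays nearly level on both probe sets. COL15A1, which encodes a multiplexin (a collagen with many interruptions) of basement membrane zones, was low in both senescent cultures. It read 4304 in growing cells, 966 in OIS cells and 1074 in RS cells, 4.45-fold and 4.01-fold lower, on its single probe set. COL18A1, the other multiplexin and the source of endostatin, read 758, 882 and 562, 1.16-fold higher in OIS and 1.35-fold lower in RS.

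Type VI collagen forms beaded filaments around cells from the products of COL6A1, COL6A2 and COL6A3. COL6A2 read 2400 in growing cells, 4150 in OIS cells and 1257 in RS cells, 1.73-fold higher and 1.91-fold lower. COL6A1 read 22947, 28105 and 18801, 1.22-fold higher in OIS and 1.22-fold lower in RS. COL6A3 read 24041, 28098 and 24072, 1.17-fold higher in OIS and level in RS. OIS was the highest array for all 3 chains. COL6A1 had 8 probe sets above the floor, and the others ranged from -0.05 to 0.84 for OIS over growing and from -1.16 to 0.25 for RS over growing in log2. Among membrane-bound collagens COL13A1, found at adhesion sites and the neuromuscular junction, read 2980, 3772 and 5287, 1.27-fold higher in OIS and 1.77-fold higher in RS. COL25A1, a collagen of neurons, read 44.5, 54.6 and 20.6 and exceeded the floor in OIS alone. The class of other collagens had a median log2 ratio of 0.29 in OIS and -0.07 in RS.

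Chains that join in 1 collagen type were then set side by side by the difference of their log2 ratios. Such a difference shows unequal change and not which chain was the one to differ. For type I the difference of COL1A1 and COL1A2 was 0.09 in OIS over growing and 0.10 in RS over growing, and for COL4A1 and COL4A2 it was 0.25 and 0.17. These are below the spread between probe sets. COL4A6 exceeded COL4A1 by 1.52 in OIS and by 0.20 in RS, and COL4A5 exceeded it by 0.85 and 0.31. COL5A3 exceeded COL5A1 by 0.57 in OIS and lay below it in RS, at -2.47. COL11A1 and COL11A2 differed by 0.00 in OIS and by 1.73 in RS. COL6A2 exceeded COL6A3 by 0.57 in OIS and lay below it in RS, at -0.94. COL6A1 and COL6A2 are neighbours on chromosome 21, with no protein-coding gene between them in the RefSeq table, and differed by -0.50 in OIS and 0.65 in RS. In OIS the differences of COL5A3 from COL5A1 and of COL6A2 from COL6A1 and COL6A3 were all close to the SD of 0.51. A second COL6A2 probe set gave 0.29 in OIS, beside 0.22 for COL6A3. COL3A1 and COL5A2 are neighbours on chromosome 2 in the same sense, and had RS ratios of -0.50 and 0.11.

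Set directly against each other, OIS and RS differed at least 2-fold for 8 collagens. At least 2-fold higher in OIS were 6 of the 31 measured (19.4%), beside 5.48% of all measured genes. At least 2-fold higher in RS were 2 (6.45%), beside 5.27% of all measured genes. The 6 were COL10A1, COL5A3, COL21A1, COL7A1 at 3.31-fold, COL6A2 at 3.30-fold and COL4A6. The 2 were COL14A1, at least 3.56-fold, and COL11A1, 2.25-fold. Of the 31 measured collagens 23 were highest on the OIS array, 6 on the RS array and 2 on the growing array. The 6 were COL5A2, COL8A2, COL11A1, COL13A1, COL14A1 and COL22A1, and the 2 were COL15A1 and COL16A1. COL21A1 and COL25A1 exceeded the floor in OIS alone, so they could only be highest there. The order of the arrays was not counted over all measured genes, and for some collagens it rests on small ratios. The median log2 ratio of OIS over RS was 0.25 over measured collagens and 0.00 over all measured genes. By class it was 0.22 for fibrillar, 0.53 for basement membrane, -0.06 for FACIT and 0.58 for other collagens.

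A second probe set on the same array was the only repeat measurement. Of the 10 collagens at least 2-fold from growing cells in OIS, 6 had another probe set above the floor, and in 5 of them every other probe set had the same sign. COL14A1 was the exception, its other probe set being under the floor on both arrays. For RS over growing this held in 2 of 2 and for OIS over RS in 7 of 7. COL15A1, COL21A1 and COL24A1 had no other probe set, and COL4A5 none above the floor.

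**Figure D3:**
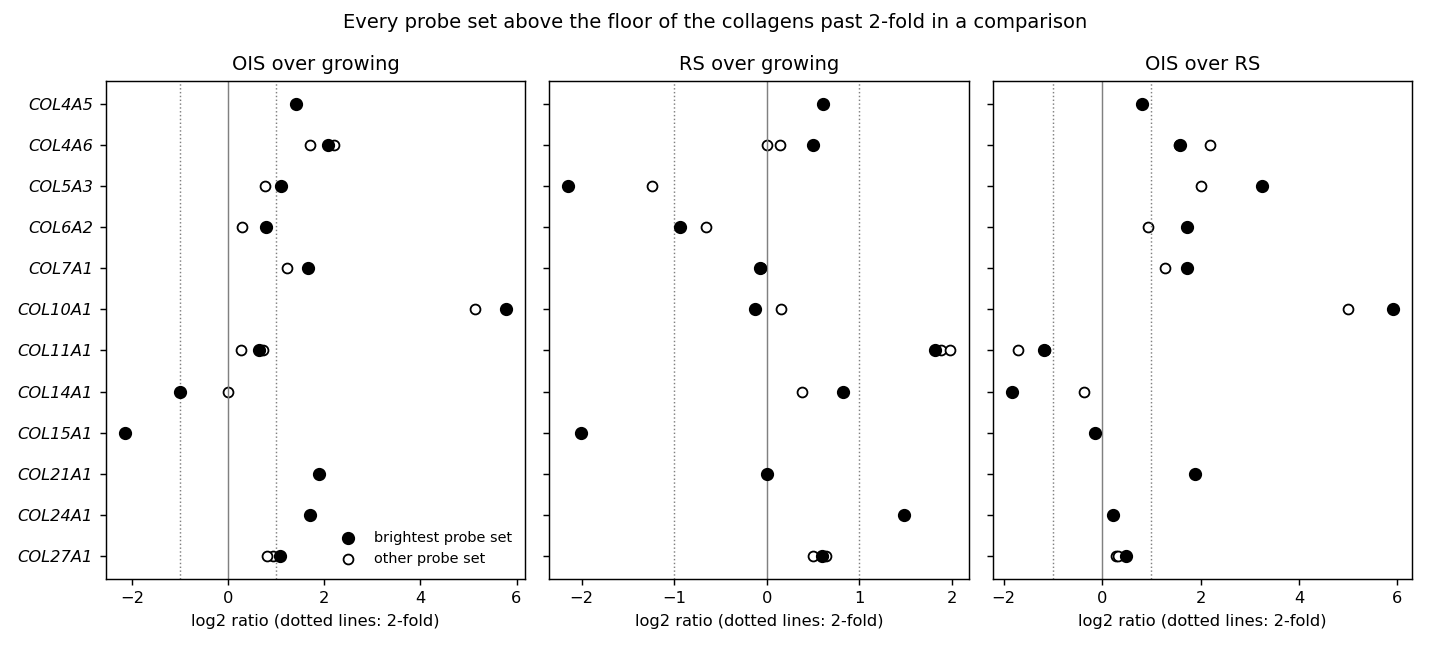
Log2 ratio of every probe set above the floor for the 12 collagens at least 2-fold apart in any of the 3 comparisons, with the brightest probe set filled and others open. Dotted lines mark 2-fold; points at 0.00 include probe sets at the floor on both arrays, such as the second one of COL14A1 for OIS over growing.

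The remaining 12 collagens stayed under the floor on every array, with no probe set above 38.2. They were COL2A1, the main cartilage fibril chain, COL4A3, COL4A4, COL6A5, COL6A6, COL9A1, COL9A3, COL19A1, COL20A1, COL23A1, COL26A1 and COL28A1. A low signal here is not a measure of absence.

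The genes that modify, carry, assemble, bind and break down collagen were read from fixed lists. Of 14 measured prolyl and lysyl modification genes, P3H2, a prolyl 3-hydroxylase that acts on type IV collagen, alone was past 2-fold. It read 3647 in growing cells, 1708 in OIS cells and 10246 in RS cells, 2.14-fold lower and 2.81-fold higher. None of 12 chaperone and export genes was past 2-fold on either senescent array. Of 10 measured processing and crosslinking genes 1 was higher and 1 lower in OIS and none in RS. Each is 10%, beside 4.92% higher and 6.63% lower of all measured genes. ADAMTS3, a procollagen N-proteinase, was 3.18-fold higher, and LOXL1, a lysyl oxidase of elastic fibers, 2.26-fold lower.

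Of 11 measured collagen receptor genes 3 were past 2-fold in OIS, all higher, and none in RS. The 3 are 27.3% of the list, beside 4.92% of all measured genes. ITGA11 and ITGA1, integrin chains that bind fibrillar and type IV collagen, were 3.01-fold and 2.62-fold higher. GP6, the platelet collagen receptor, was 2.20-fold higher from a signal of 50.6. Of 10 measured degradation genes 2 were past 2-fold in OIS, both upward, the lysosomal collagenase CTSK at 5.31-fold and the membrane collagenase MMP14 at 2.60-fold. This is 20% of the list, beside 4.92% of all measured genes. Each of the 10 had an OIS ratio above 0, beside 47.1% of all measured genes. The median log2 ratio of the degradation list was 0.71 in OIS, beside 0.45 for the measured collagens, and 0.05 in RS. MMP1, interstitial collagenase, was 3.96-fold lower in RS and the only degradation gene past 2-fold there. None of 12 measured basement membrane partners of type IV collagen, laminins, nidogens and proteoglycans, was past 2-fold in either comparison. Their median was -0.14 in OIS and 0.21 in RS.

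Fibril-binding proteins were mixed, with 2 higher and 1 lower in OIS and 2 lower in RS among 12 measured. These are 16.7%, 8.33% and 16.7%, beside 4.92%, 6.63% and 5.58% of all measured genes. POSTN (periostin), which binds type I collagen, read 11197 in growing cells, 24524 in OIS cells and 412 in RS cells, 2.19-fold higher and 27.2-fold lower. Its other 3 probe sets above the floor ranged from -0.27 to 1.68 in log2 for OIS and from -5.65 to 0.00 for RS. DCN (decorin) was 2.59-fold lower in OIS, THBS2 (thrombospondin-2) 2.31-fold higher in OIS and BGN (biglycan) 2.20-fold lower in RS. Of 16 measured transcription regulators RUNX3 alone was past 2-fold, at least 3.33-fold higher in RS.

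**Figure D4:**
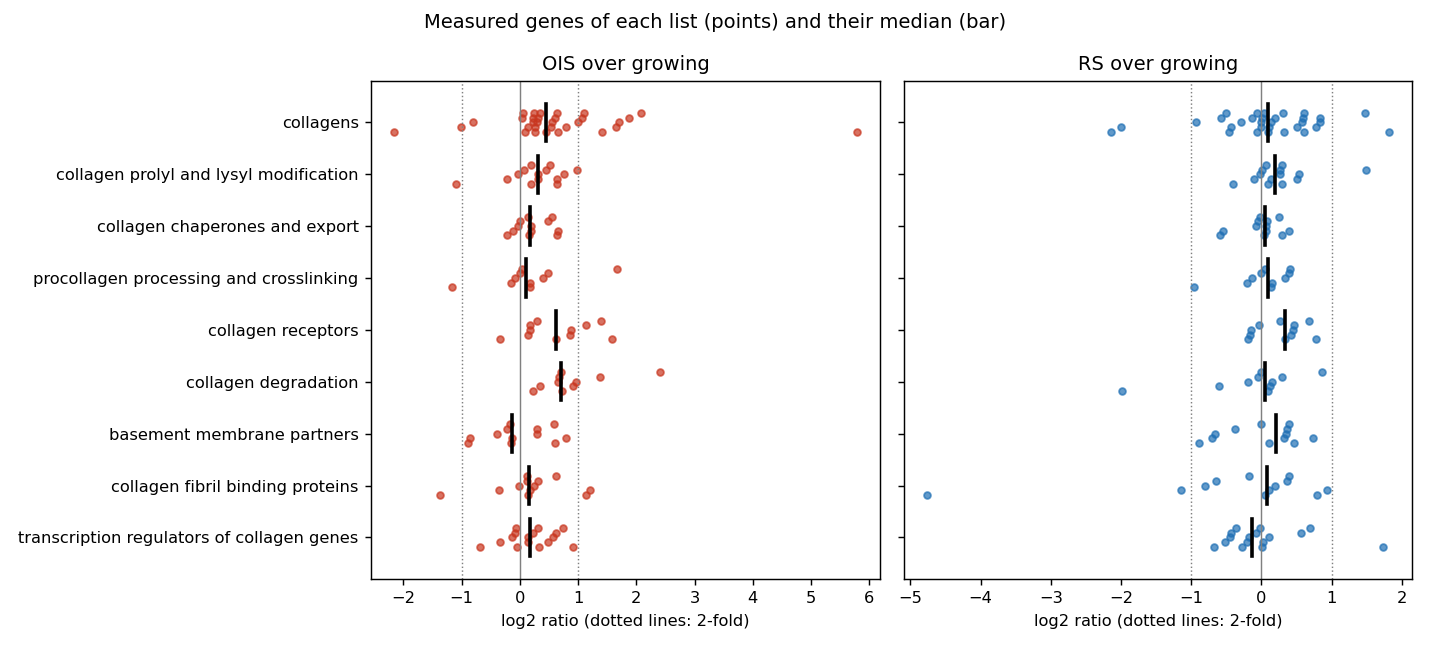
Log2 ratio to growing cells of each measured gene in the collagens and in 8 lists of related genes, for OIS (left) and RS (right), with a bar at each list's median. Dotted lines mark 2-fold; the point near -4.76 on the right is POSTN and the point near 5.79 on the left is COL10A1.

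Markers of other cell types were read beside the collagens that other cells make. Summed signals, here and below, are over every marker of a list with a probe set, measured or not. Of 11 chondrocyte markers 6 were measured, and the summed signal of all 11 was 3824 in growing cells, 4465 in OIS cells and 4588 in RS cells. MATN1, COMP, CHAD, SNORC and IHH were under the floor on all arrays, as was COL2A1, and MATN3 was 4.50-fold lower in OIS. The log2 ratios of SOX9, SOX5, SOX6 and ACAN in OIS were 0.58, 0.48, 0.23 and 0.33, none past 2-fold, and the list median was 0.28. Of 8 osteoblast markers 3 were measured, with summed signals of 2133, 3533 and 1595. SP7, IBSP, ALPL and DMP1 were under the floor throughout. The list median was 0.62 in OIS and -0.46 in RS. RUNX2 read 1964 in growing cells, 3026 in OIS cells and 1432 in RS cells. It was 1.54-fold higher in OIS, 1.37-fold lower in RS and 2.11-fold higher in OIS than in RS. PHEX lay near the floor. SPP1 was 3.54-fold higher in OIS. In RS it was at least 2.62-fold lower. Of 9 endothelial markers 4 were measured, with summed signals of 1503, 2184 and 2285. CDH5, KDR, TIE1, CLDN5 and ERG were under the floor on all arrays. ROBO4 was 5.47-fold, PECAM1 2.76-fold and VWF 2.19-fold higher in OIS. Other probe sets gave smaller OIS ratios, 0.28 in log2 for ROBO4 and 0.23 and 0.28 for PECAM1, and VWF had no other above the floor. TEK, by far the brightest of the 4, read 1251 in growing cells, 1275 in OIS cells and 2033 in RS cells. It was 1.02-fold higher in OIS and 1.62-fold higher in RS. The part of these cell types in the collagen ratios was not tested.

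Smooth muscle and myofibroblast markers, 7 measured of 7, had a summed signal of 32627 in growing cells, 24523 in OIS cells and 56633 in RS cells. At least 2-fold lower in OIS were 2 (28.6%), beside 6.63% of all measured genes. In RS 2 were at least 2-fold higher (28.6%), beside 3.72% of all measured genes. CNN1, a calponin of contractile cells, was 2.25-fold lower in OIS and 2.35-fold higher in RS. TAGLN was 2.09-fold lower in OIS and 1.55-fold higher in RS. LMOD1, a muscle actin-filament protein, was 2.94-fold higher in RS, where its other probe set gave 0.53 in log2. Epithelial markers, 5 measured of 10, summed to 3455, 3281 and 6605, with EPCAM 3.20-fold lower in OIS and KRT8 2.20-fold higher in RS. Most of each sum was KRT18, at 2987 in growing cells, 2963 in OIS cells and 6010 in RS cells, 2.01-fold higher in RS. Blood markers, 3 measured of 7, summed to 321, 381 and 311. Of the 11 fibroblast markers S100A4 was 3.21-fold higher and TWIST1 2.84-fold lower in RS, and none was past 2-fold in OIS.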

How the data were processed

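Total RNA of 3 cultures was read on 1 array each. The deposited values are linear intensities per probe set, made by the authors with MAS5 per the submitters' processing notes, its settings not given in the sources used here. The method subtracts background and scales each array, so a shift common to all genes is removed. No detection calls were used. Median signals were 46.2 (growing), 45.3 (OIS) and 44.9 (RS).

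Genes were named from the platform annotation. The collagen members and all lists were chosen with earlier results of these data known. Signals were raised to the pooled median, 45.5, before log2. The brightest probe set stood for a gene. Log2 ratios were formed for 3 comparisons, and a change of 2-fold or more was counted. With 1 array a group no p-value or standard error is given. Named genes were all measured members and, from each list, up to 2 highest and 2 lowest past 2-fold. From the chondrocyte, osteoblast and endothelial lists, markers short of 2-fold or under the floor were named as well. These were outside the rule, and not every such marker was named. Protein sequence features planned for the members could not be computed. Steps were tested on simulated data. The alternatives were quantile normalization, centring, other floors, a pseudocount of 16, no filter, all probe sets, no cross-hybridizing probe sets, 3-fold, and other class membership. Promoter sequences are from RefSeq; 12 members had no entry used here (COL1A1, COL1A2, COL2A1, COL3A1, COL5A2, COL6A1, COL6A5, COL8A1, COL9A3, COL14A1, COL20A1 and COL22A1). Python 3.11.15, numpy 2.4.6, pandas 2.3.3 and matplotlib 3.10.9 were used.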

Additional observations from a re-analysis of the deposited data

Results flagged for a closer look

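Relative to the shared growing array, 3 collagens moved in opposite directions in OIS and RS, each ratio beyond the probe-set SD (0.36 and 0.33), with the senescent arrays at least 2-fold apart. COL10A1 and COL7A1 also had ratios of opposite sign and were over 2-fold apart, but their RS ratios of -0.13 and -0.07 were within that SD. The log2 ratio of OIS over RS was 3.24 for COL5A3, from 1.10 in OIS and -2.14 in RS. It was 1.72 for COL6A2, from 0.79 and -0.93, and -1.83 for COL14A1, from -1.01 and 0.83, with the OIS signal of COL14A1 under the floor. Each culture had 1 array, so the difference between the senescent cultures was not tested. How many of all measured genes moved in opposite directions in this way was not counted. Without cross-hybridizing probe sets (_s_at or _x_at names) the log2 ratio of OIS over RS was 2.01 for COL5A3, 0.94 for COL6A2 and -0.38 for COL14A1.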

How the results depend on the processing

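No paired analysis was possible because each group had a single array. No called collagen changed sign under any alternative run. Of 8 collagens at least 2-fold higher in OIS than in growing cells, 5 were so with the median of all probe sets, 4 without cross-hybridizing probe sets and 5 at 3-fold. Of the 2 lower ones, 1 was so after quantile normalization, with the 60th percentile floor, with the median of all probe sets, without cross-hybridizing probe sets and at 3-fold, where COL14A1 was lost each time. In RS, 1 in place of 2 was higher with the 60th percentile floor and at 3-fold, and 4 in place of 2 were lower with the 25th percentile floor. For OIS over RS, 3 in place of 6 were higher without cross-hybridizing probe sets, and 1 in place of 2 was lower with the 60th percentile floor, with the median of all probe sets and at 3-fold. Without cross-hybridizing probe sets COL1A2, at -1.17 in log2, took the place of COL14A1 among the 2 lower ones. The median of all probe sets added COL12A1 as higher. The 25th percentile floor added COL25A1, COL4A4 and COL6A6. Leaving out cross-hybridizing probe sets left 23 collagens, and COL10A1 and COL21A1 then had no probe set, and COL4A5 none above the floor. The basement membrane median in OIS was 0.43 with no filter, 0.56 without cross-hybridizing probe sets and 0.56 with multiplexins and COL7A1 added. The FACIT median was -0.035 in OIS and -0.33 in RS with the 25th percentile floor, and -0.23 in RS with the 60th percentile floor. The median of other collagens for OIS over RS was 0.11 with no filter. Fewer or more genes above the floor, or fewer probe sets, enter under these settings by construction. Signals near the floor of 45.5 limit COL14A1, COL21A1, COL24A1 and the RS value of COL5A3. With the 60th percentile floor the OIS log2 ratio of COL21A1 was 0.92 and of COL24A1 0.80.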

Other observations

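The probe sets of single collagen genes did not all give the same ratio. A probe set of COL1A2 without a cross-hybridizing name read 2983 in growing cells, 1666 in OIS cells and 3761 in RS cells, a log2 ratio of -0.84 for OIS over growing and -1.17 for OIS over RS, whereas the brighter pair gave 0.04 and -0.02 for OIS over growing. A probe set of COL3A1 without such a name read 364, 233 and 258, a log2 ratio of -0.65 in OIS where the brightest gave 0.09. For COL5A1 the less bright probe sets both gave 0.95 in OIS, above the 0.53 of the brightest. For COL12A1 the second probe set read 4259, 6810 and 2045, which is 0.68 in OIS and -1.06 in RS beside 0.24 and -0.58. Which transcripts each probe set reads was not tested.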
